A study of Mus musculus with 14 samples.

Results

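In 3 mice of this series a tumor was sequenced from each flank, and these left-right pairs are described here. The pairs were read from the sample titles, in which the same number followed by L or R was taken as the left and the right flank tumor of 1 mouse. They hold 6 of the 14 tumors sequenced and 3 of the 11 mice, and all 53801 genes of the deposited tables were used. CT26 is a colon carcinoma line of the mouse strain that the labels write as BALBc. The hosts were female mice of that strain aged 6 to 8 weeks, and each flank site received 250000 cells of a pool of CT26 cells carrying DNA barcodes. From day 7 the mice were given control IgG or anti-PD-1, an antibody against the T cell checkpoint receptor PD-1, at 200 μg every 3 days for 5 doses, and the tumors were taken 3 days after the last dose. Tumors 14L and 14R came from a mouse given control IgG, 30L and 30R were labelled anti-PD-1 responders, and 33L and 33R anti-PD-1 non-responders. The response labels of the study rest on tumor size at the end. Each pair belonged to another group, so that mouse and treatment cannot be told apart among the pairs, and each pair was 1 library against 1 library.

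Tumors that grow under the skin of the flank lie between the skin and the sheet-like muscle beneath it. A dissected tumor can therefore carry muscle fibers, epidermis, hair follicles with their sebaceous glands, fat and blood along with the cancer cells and the leukocytes in it. Skeletal muscle is known by the proteins of the sarcomere, its contractile unit, and epidermis by the keratins of its basal and upper layers. In bulk RNA, more cells of a type and more RNA per cell cannot be told apart.

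The 6 libraries had totals between 34266743 and 48481461 expected counts, and 3 counts were taken as the detection floor of a library, which covers counting error only. Levels are given as CPM, counts scaled to a common library total after TMM normalization, and differences as right minus left on the log2 CPM scale with a prior count of 2. The colon label was checked against 14 colon epithelium markers. Krt20, an intestinal keratin, lay between 202.4 and 396.0 CPM in the 6 tumors. Slc26a3, Muc2, Vil1, Car1 and Cdx1, which mark differentiated colon epithelium, were at or below 0.106 CPM in every one of them. Cdx2, an intestinal transcription factor, had 18 counts in 30L and 1 in 30R, a ratio of 23.9 with a counting interval of 3.78 to 997.4, and between 16 and 31 counts in the other 4.

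The first question was whether tumors of the same mouse resembled each other. They did not resemble each other more than tumors of different mice with the same label. The root mean square difference over the 16287 genes tested was 0.885 log2 CPM between 14L and 14R, 0.878 between 30L and 30R, and 0.693 between 33L and 33R. The mean of the 3 pairs was 0.819, against 0.624 for tumors of different mice of a group, and the larger distance within mice had p = 0.0267 (two-sided exact permutation test over 600 assignments of the pairs). With either tumor of mouse 14 left out the mean over the remaining 2 pairs was 0.786 (p = 0.1, exact permutation test over 60 assignments), with either tumor of mouse 30 left out it was 0.789 (p = 0.2, exact permutation test), and without 32R, a tumor with no mate, the p was 0.0533 (exact permutation test). With the skin, muscle and red cell list genes left out the means were 0.764 and 0.598 (p = 0.04, exact permutation test). The lists are short, and skin and muscle genes outside them stayed in, so that this setting could not remove host tissue as a whole. Of the 500 genes at least 2-fold higher in both 14L and 30R, 439 were on no list. Of the 117 at least 2-fold higher on the right in all 3 pairs, 93 were on none. In mice 14 and 33 the right tumor was the distant member. 14R lay 0.836 to 0.904 from the control IgG tumors of the other mice, whereas 14L lay 0.507 to 0.525 from them. 33R lay 0.672 to 0.769 from the other non-responder tumors, and 33L lay 0.542 to 0.554. In mouse 30 the ranges overlapped, at 0.564 to 0.811 for 30R and 0.646 to 0.690 for 30L.

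**Figure D1:**
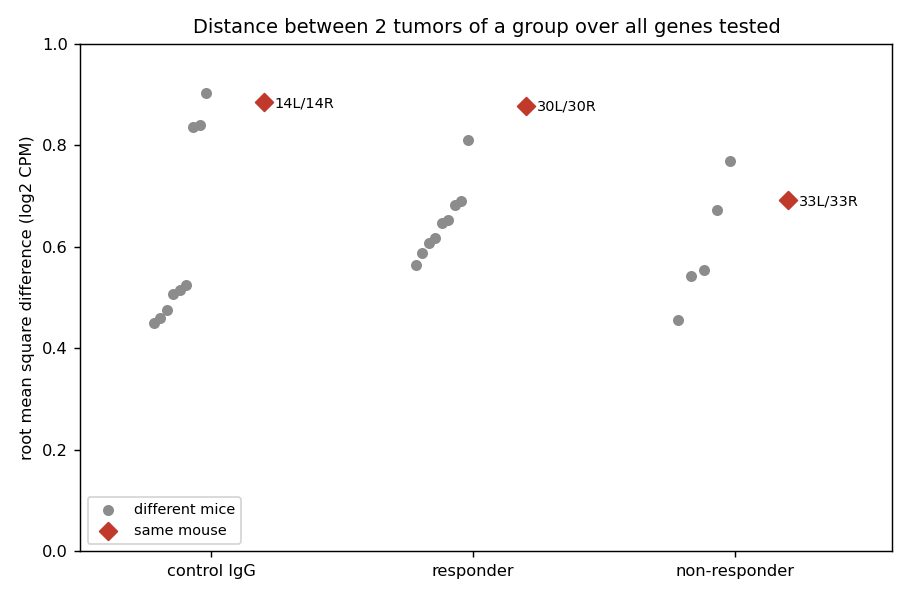
Root mean square difference in log2 CPM (y axis) between every 2 tumors of a group, for control IgG, responder and non-responder tumors (x axis). Red diamonds are the 2 tumors of 1 mouse and grey points are tumors of different mice, and the diamonds at 0.885, 0.878 and 0.693 each have at most 1 grey point of their group above them.

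Between 14L and 14R, 434 genes (2.66%) were at least 2-fold higher in 14R and 946 (5.81%) in 14L. In mouse 30 the balance was the other way, with 911 genes (5.59%) at least 2-fold higher in 30R and 346 (2.12%) in 30L. In mouse 33, 665 genes (4.08%) were at least 2-fold higher in 33R and 1159 (7.12%) in 33L. On the log2(TPM + 1) scale the balance of pair 33 moved from 36.5% to 4.04% of these genes higher in 33R, and on that scale the median of all genes itself lay at -0.30 in this pair, at -0.16 in pair 14 and at 0.09 in pair 30. These counts have no replicate check, and pairs of tumors from different mice of a group gave between 629 and 2291 genes past the same fold.

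Only 117 genes (0.718%) were at least 2-fold higher on the right in all 3 pairs, and 10 genes (0.0614%) on the left in all 3. Of the 117, 20 were skeletal muscle list members and 2 were myogenic regulators. By contrast, 500 genes (3.07%) were at least 2-fold higher in both 14L and 30R, which is 52.9% of the genes higher in 14L and 54.9% of those higher in 30R. Of the 500, 31 belonged to the epidermis list, 13 to the hair follicle list and 7 to the sebaceous gland list. Muscle genes were thus on the right in these 3 mice, while skin genes were on the left in mouse 14 and on the right in mouse 30.

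**Figure D2:**
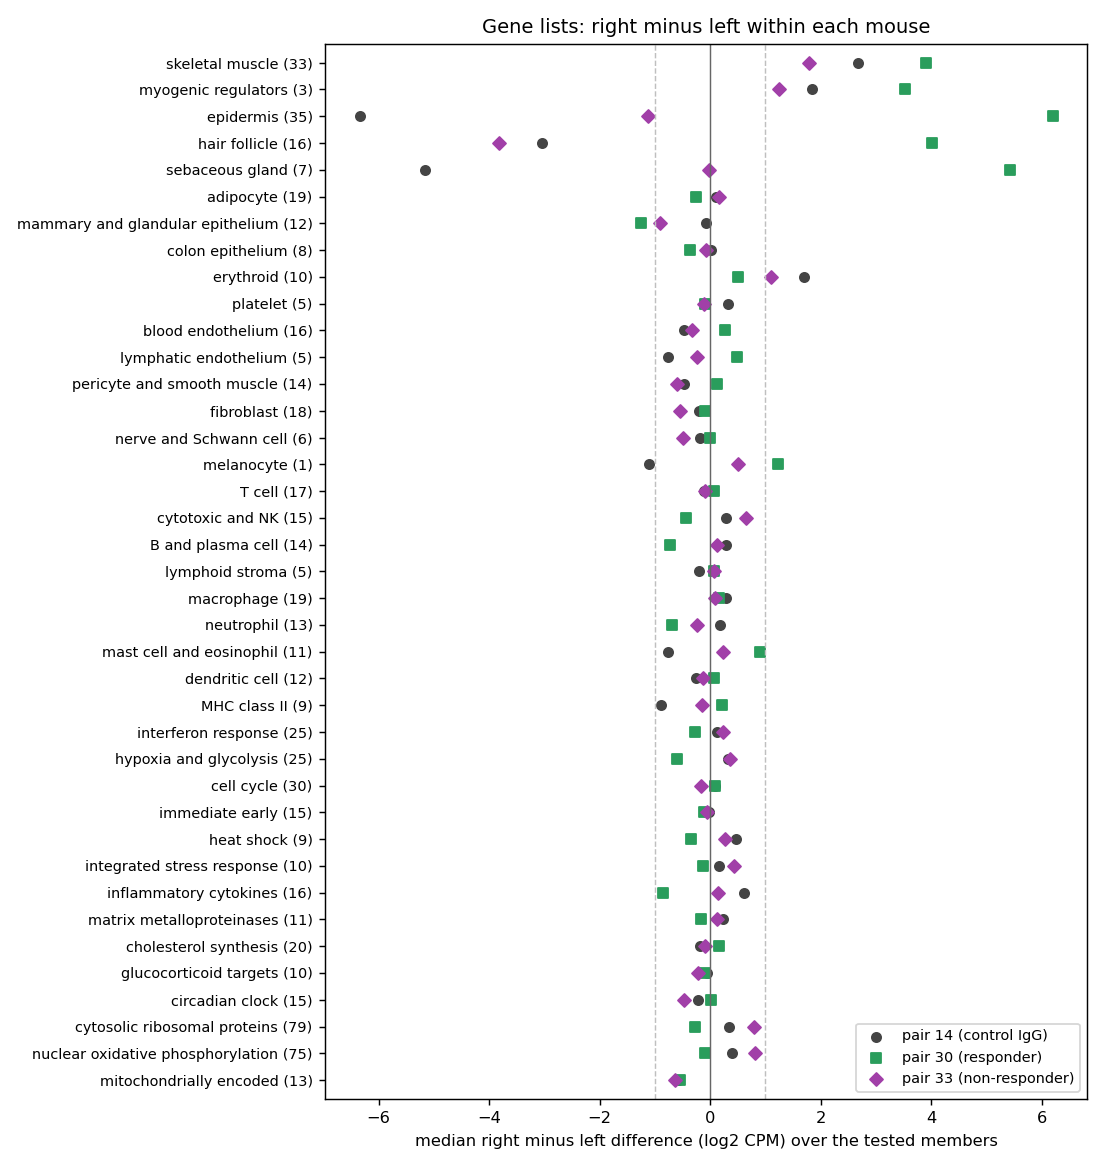
Median right minus left difference in log2 CPM (x axis) over the tested members of each gene list (y axis, number of tested members in parentheses), with a circle for pair 14, a square for pair 30 and a diamond for pair 33. Dashed lines mark 2-fold, and skeletal muscle is past it on the right in all 3 pairs while epidermis and hair follicle change sides.

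Skeletal muscle genes were higher in the right tumor of each mouse. Of the 33 list members tested, 33 were higher in 14R, 33 in 30R and 31 in 33R, and 31, 30 and 22 of them were at least 2-fold higher. The median difference was 2.68 in pair 14, 3.91 in pair 30 and 1.78 in pair 33, where the medians of all genes were 0.00, -0.03 and -0.03. Myh8 was the member at least 2-fold lower on the right, with 22 counts in 33L and 8 in 33R. The summed TPM of the list was 484.7 in 14L and 2317 in 14R, 194.5 in 30L and 963.1 in 30R, and 511.8 in 33L and 1313 in 33R. In the 8 tumors without a mate it lay between 295.5 and 990.9, so that 14R and 33R stood above all 8, 30R lay within their range and 30L lay below it.

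Acta1, the actin of skeletal muscle thin filaments, lies at chr8:123891769-123894751 (GRCm38) and had 73.1 CPM in 14L and 450.2 in 14R, 6.18 in 30L and 145.5 in 30R, and 85.4 in 33L and 289.4 in 33R. Ckm, the muscle creatine kinase, had 25.8 CPM in 14L and 196.0 in 14R, 4.17 in 30L and 53.2 in 30R, and 26.5 in 33L and 120.1 in 33R. Mb, which encodes the oxygen store myoglobin, had 1.42 CPM in 14L and 14.4 in 14R, 0.238 in 30L and 3.16 in 30R, and 1.87 in 33L and 10.6 in 33R. For each of these markers 30L was the lowest tumor of the 6 and 14R the highest. The right to left ratio of Acta1 was 6.16, 23.5 and 3.39 in mice 14, 30 and 33, that of Ckm 7.60, 12.7 and 4.54, and that of Mb 10.1, 13.3 and 5.64.

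The genes with the largest right-sided differences in pairs 14 and 33 were for the most part muscle genes. In pair 14 they were Pcdhgc4, Tcap, Pgam2, Ampd1, Mb, Art1, Tnnc2, Pygm, Atp2a1 and Pvalb, and in pair 33 Pcdhgc4, Ankrd2, Tnnc2, Tcap, Ppp1r3c, Tnni2, Mb, Pgam2, Apobec2 and Csrp3. Tcap, which caps the giant protein titin at the Z-disc, had 2.27 CPM in 14L and 26.1 in 14R, 0.476 in 30L and 6.46 in 30R, and 3.46 in 33L and 20.1 in 33R. Pvalb, a calcium buffer of fast fibers, had 7.10 CPM in 14L and 55.1 in 14R, 1.004 in 30L and 13.9 in 30R, and 6.91 in 33L and 34.7 in 33R. Pcdhgc4 is a gamma protocadherin, a cell adhesion protein, and had 2.39 CPM in 14L and 28.9 in 14R, 1.13 in 33L and 17.1 in 33R, but 4.94 in 30L and 4.83 in 30R. It shares its 3′ exons with the other gamma protocadherins, 1 of which, Pcdhgb8, was among the genes most higher in 33L (6.23 CPM against 1.39 in 33R), so that the split of reads among them is uncertain.

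Some genes of slow fibers separated 30R from the other right tumors. Myh7, the slow myosin heavy chain, had 1 count in 14L and 369 in 14R, 6 in 33L and 52 in 33R, but 0 in 30L and 2 in 30R. Myl2, the slow regulatory light chain, had 1 count in 14L and 235 in 14R, 0 in 33L and 74 in 33R, and 1 in each tumor of mouse 30. The slow troponins Tnni1 and Tnnc1 were higher on the right by 3.10 and 2.78 in pair 14 and by 2.45 and 1.69 in pair 33, against 0.80 and 0.43 in pair 30. Tnnt1, the slow troponin T, did not follow them as closely, and was higher on the right by 2.68, 1.61 and 2.27 in pairs 14, 30 and 33. Myh4, the fastest myosin heavy chain, was by contrast higher on the right by 3.80 in pair 30, with 8.45 CPM in 30L and 118.7 in 30R, against 2.31 and 0.84 in pairs 14 and 33. The developmental myosin Myh8 had 1 count in 30L and 96 in 30R, a ratio of 72.2 with a counting interval of 12.7 to 2880, and 9 and 21 counts in 14L and 14R. The muscle-rich tumor of mouse 30 thus held fast and developmental myosin transcripts with slow myosin near the floor. In the 8 tumors without a mate Myh7 was at most at 0.16 CPM, against 7.88 in 14R, 1.65 in 33R and 0.17 in 33L.

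Myogenic regulators were sparse. Myog, which drives muscle differentiation, had 8 counts in 14L and 44 in 14R, 0 in 30L and 48 in 30R, and 7 in 33L and 17 in 33R. Myf6, the regulator retained in mature fibers, had 12 counts in 14L and 77 in 14R, 0 in 30L and 26 in 30R, and 12 in 33L and 38 in 33R. Against the floor of 3 counts, Myog was at least 12.03-fold higher and Myf6 at least 6.52-fold higher in 30R than in 30L. Pax7 and Myf5, which mark muscle stem cells, had 0 counts in all 6 tumors. The imprinted neighbors H19 and Igf2, chosen here after their values were seen, were among the 117 genes, with H19 at 11.4 CPM in 14L and 50.7 in 14R, 6.47 in 30L and 27.4 in 30R, and 21.6 in 33L and 55.4 in 33R.

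The upstream sequences of 3 of the muscle genes and of 1 epidermal gene are shown as examples. Each of them carries the motif marked in it, which many members of its list do not, as counted below. Whether these motifs bear on the differences between tumors was not tested. Myogenic regulators of the MyoD family bind E-boxes such as CAGCTG. RefSeq start sites on GRCm38.p6 were used, and each stretch begins 250 bases before the start and ends before the first annotated exon base. Ckm lies at chr7:19410844-19411024 on the plus strand, Pygm, the muscle glycogen phosphorylase, at chr19:6384158-6384398 on the plus strand, Atp2a1, the calcium pump of fast fibers, at chr7:126463109-126463323 on the minus strand, and Krt10, a keratin of upper epidermis, at chr11:99389365-99389614 on the minus strand. Capitals mark CAGCTG in the first 3 and TATAAA in Krt10, and the sequences run 5′ to 3′.
Ckm: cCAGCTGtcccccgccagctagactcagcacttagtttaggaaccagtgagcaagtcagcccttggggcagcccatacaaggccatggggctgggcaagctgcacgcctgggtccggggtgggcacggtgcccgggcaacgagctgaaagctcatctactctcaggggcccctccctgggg
Pygm: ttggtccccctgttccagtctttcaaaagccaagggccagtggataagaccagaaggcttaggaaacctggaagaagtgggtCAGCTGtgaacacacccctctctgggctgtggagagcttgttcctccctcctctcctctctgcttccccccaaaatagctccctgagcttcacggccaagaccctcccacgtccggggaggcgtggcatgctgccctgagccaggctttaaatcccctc
Atp2a1: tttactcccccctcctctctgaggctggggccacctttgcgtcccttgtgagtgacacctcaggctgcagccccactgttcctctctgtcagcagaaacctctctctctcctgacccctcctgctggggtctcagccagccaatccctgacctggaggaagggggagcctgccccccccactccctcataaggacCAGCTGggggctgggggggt
Krt10: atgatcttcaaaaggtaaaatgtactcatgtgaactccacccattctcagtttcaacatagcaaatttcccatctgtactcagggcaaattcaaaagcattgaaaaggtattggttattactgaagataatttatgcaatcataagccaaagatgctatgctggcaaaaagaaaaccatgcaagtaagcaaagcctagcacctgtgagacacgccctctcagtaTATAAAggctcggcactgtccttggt
CAGCTG, which reads the same on both strands, stood in the 250-base window of 13 of the 28 muscle list genes with an entry (46.4%), in 5 of 24 epidermis genes (20.8%) and in 14.7% of the 27025 genes of the table. TATAAA, on either strand, stood in 8 of 28 muscle genes (28.6%), in 10 of 24 epidermis genes (41.7%) and in 14.3% of all genes. The motifs do not overlap each other, and a match describes the letters only.

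Whether right and left differed over the 3 mice was tested with mouse as a block (edgeR quasi-likelihood test, Benjamini-Hochberg adjustment over 16287 genes). No gene had an adjusted p under 0.05 (0 genes, 0%), while 864 genes had an unadjusted p under 0.05. DESeq2 called 107 genes, 88 of them higher on the right and 21 of them on the muscle list, and limma-voom called 0. The 5 genes with the smallest p were Tnni2, Ankrd23, Pgam2, Myoz1 and Tcap, muscle genes that were all higher on the right in 3 of 3 pairs. Tnni2, the fast troponin I, had 15.3 CPM in 14L and 98.4 in 14R, 2.64 in 30L and 23.5 in 30R, and 12.8 in 33L and 72.6 in 33R. Its difference was 2.79 ± 0.17 (SE derived from the edgeR F statistic over 3 pairs, edgeR adjusted p = 0.0846). Ankrd23, a titin-binding ankyrin repeat protein, had a difference of 2.39 ± 0.15 (SE derived from the edgeR F statistic over 3 pairs, edgeR adjusted p = 0.0846). Of the 33 muscle list members, 30 had an unadjusted p under 0.05. Without pair 14 the test called 12 genes, 10 of them on the muscle list, without pair 33 it called 0 (236 at an unadjusted p under 0.05), and without pair 30 it called 2634, of which 1082 were higher on the right. With an offset for gene length and pair 30 left out, it called 73, of which 53 were higher on the right and 19 were on the muscle list.

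In the tumors of other mice the muscle levels of the sides overlapped. Among the 8 tumors without a mate, the summed TPM of the muscle list was 295.5 to 990.9 in 3 left tumors and 330.7 to 744.0 in 5 right tumors. In a fit of flank with group over these 8, 24 of 33 muscle members were higher on the right, with a median of 0.18, and edgeR called 0 genes, with 742 at an unadjusted p under 0.05. The control IgG tumors among these 8 were all right tumors. The ranges of the sides thus mix flank with group, and this fit compares the sides in responders and non-responders only. Over all 14 tumors, the pairs included, 32 of 33 members were higher on the right, with a median of 1.14.

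**Figure D3:**
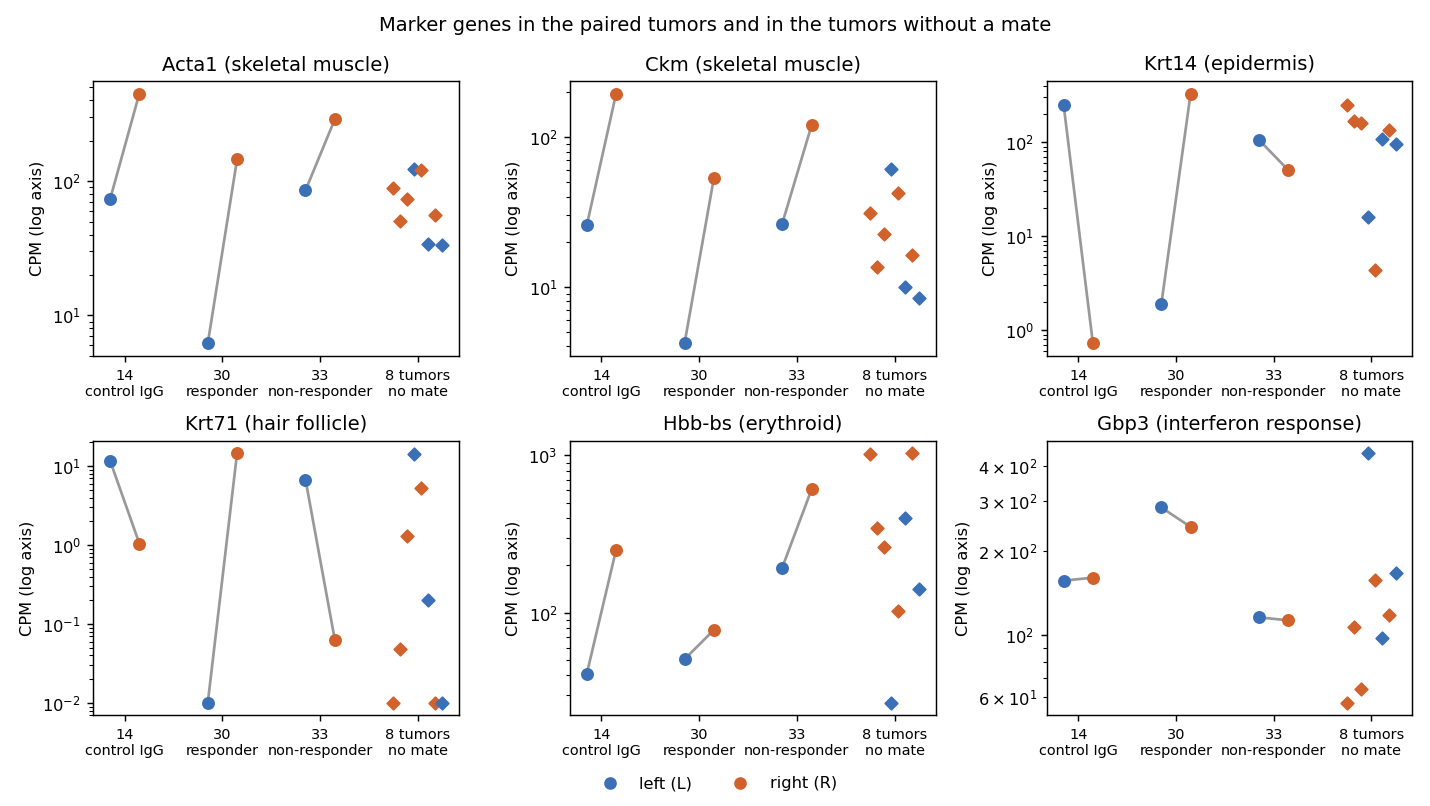
CPM (log axis) of 6 marker genes in the left (blue) and right (orange) tumor of mice 14, 30 and 33, joined by a grey line, and in the 8 tumors without a mate (diamonds). Values of 0 are drawn at 0.01, and the lines of Acta1, Ckm and Hbb-bs run upward in all 3 mice while those of Krt14 and Krt71 change direction and those of Gbp3 are nearly flat. Gbp3 was among the genes with the smallest p in the test of differences between mice.

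Epidermal genes had the largest list medians of pairs 14 and 30 and lay on opposite sides in mice 14 and 30. Of the 35 list members tested, 34 were higher in 14L, 32 of them at least 2-fold, and 35 were higher in 30R, 32 of them at least 2-fold. The median difference was -6.34 in pair 14, 6.2 in pair 30 and -1.12 in pair 33, where 33 were higher in 33L and 21 at least 2-fold. Krt14, a keratin of basal keratinocytes at chr11:100203162-100207548 (GRCm38), had 251.4 CPM in 14L and 0.726 in 14R, 1.90 in 30L and 330.3 in 30R, and 106.2 in 33L and 50.4 in 33R. Krt10 of the upper layers had 152.2 CPM in 14L and 4.55 in 14R, 3.73 in 30L and 210.5 in 30R, and 67.4 in 33L and 32.2 in 33R. Lor, which encodes the cornified envelope protein loricrin, had 23.7 CPM in 14L and 0.107 in 14R, 0.185 in 30L and 31.9 in 30R, and 8.58 in 33L and 3.20 in 33R. Basal, upper and cornified layer genes thus varied together, and 14R and 30L had the lowest levels of the 6 tumors. Lgals7, an epidermal galectin also on the list, did not vary with them. It was close to even in pairs 14 and 30, at 210.6 CPM in 14L and 222.7 in 14R, and 190.0 in 30L and 222.9 in 30R. In pair 33 it was higher on the right, at 163.9 in 33L and 273.6 in 33R.

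These values can be set beside the 8 tumors without a mate, in which Krt14 lay between 4.37 and 249.1 CPM with a median of 120.9. 14L and 30R lay just above that range, 33L and 33R inside it, and 14R and 30L below it. The 10 genes most higher in 14L were Krt6b, Krt6a, Krt16, Krt14, Calm4, Krt1, Pkp1, Dmkn, Krt5 and Krt17, and the 10 most higher in 30R were Krt6b, Krt16, Sprr2a2, Krt6a, Krt1, Calm4, Asprv1, Krt14, Lor and Klk7. Krt6b, Krt6a and Krt16 are keratins of hair follicles and of wounded or rapidly dividing epidermis. Krt6b had 5471 counts in 14L and 0 in 14R, at least 2426-fold higher, and 5 counts in 30L and 10989 in 30R. Krt6a and Krt6b are near-identical, so that reads could be split between them.

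Hair follicle genes were on the same side as epidermis in each mouse, with a larger median difference than epidermis in mouse 33. Their median difference over 16 tested members was -3.05, 4.02 and -3.83. Krt71, a keratin of the inner root sheath, had 414 counts in 14L and 49 in 14R, 0 in 30L and 736 in 30R, and 239 in 33L and 2 in 33R. Of the 20 list members in the tables, 13 were at 0 in 30L and 12 in 33R. In 33R, Krt14 was 2.11-fold lower than in 33L, whereas Krt71 was 107-fold lower, with a counting interval of 29.3 to 887.4. In the 8 tumors without a mate Krt71 spanned 0 to 14.4 CPM with a median of 0.124, and 24L and 26R were the tumors above 5 CPM. Sebaceous gland genes had medians of -5.17, 5.43 and -0.03 over 7 members. Elovl3, a fatty acid elongase of sebaceous glands, had 171 counts in 14L and 2 in 14R, 1 in 30L and 261 in 30R, and 40 in 33L and 35 in 33R. In mouse 33 the sebaceous members went both ways, from -1.82 to 2.31, and their summed TPM was 8.28 in 33L and 4.66 in 33R.

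**Figure D4:**
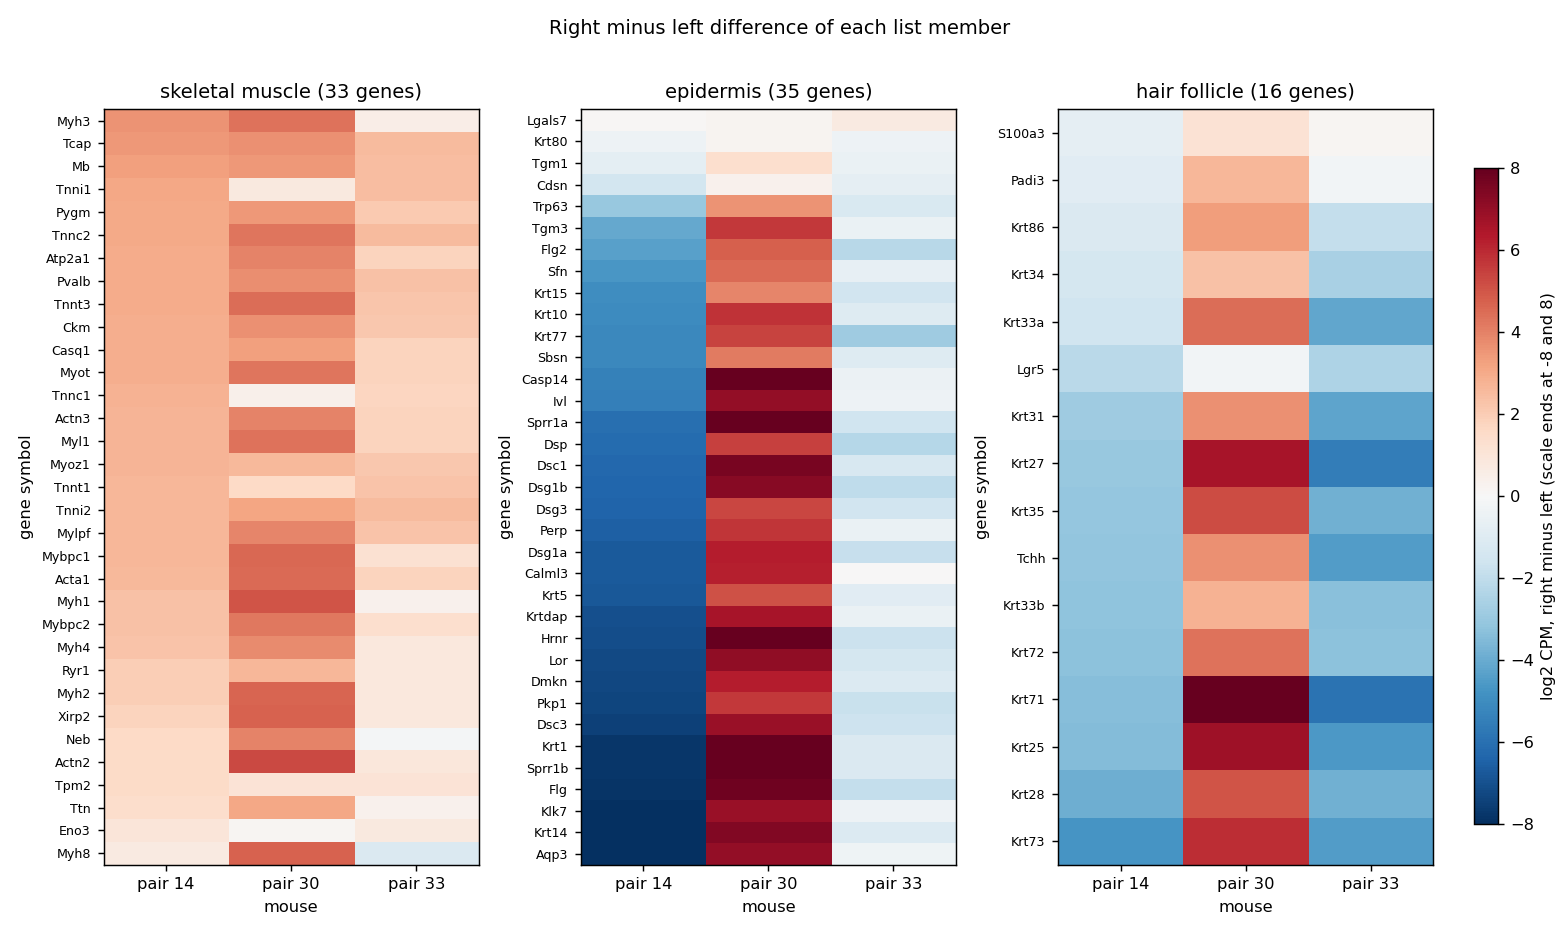
Right minus left difference in log2 CPM (color, red for higher on the right and blue for higher on the left) of each tested member of the skeletal muscle, epidermis and hair follicle lists (rows) in pairs 14, 30 and 33 (columns). Muscle is red in nearly every cell, with Myh8 blue in pair 33, while epidermis is blue in pair 14, red in pair 30 and pale in pair 33, and hair follicle is blue in pairs 14 and 33.

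In pair 33 the genes most higher on the left were Krt77, Fcgbp, Gm28439, Dsp, Glcci1, Myh11, Pcdhgb8, Gjb2, Fat1 and Flg. Krt77, Dsp and Flg are epidermis list members, with Dsp, the desmosome protein desmoplakin, at 25.9 CPM in 33L and 5.32 in 33R. Fcgbp, a secreted protein that binds the Fc part of IgG, was also among the 10 genes at least 2-fold higher on the left in all 3 pairs, at 2.95 CPM in 14L and 0.726 in 14R, 13.1 in 30L and 3.70 in 30R, and 5.81 in 33L and 0.792 in 33R. Each left tumor was above its own right tumor, although 30R was above 14L. These 10 genes were Fcgbp, Igfbp2, Hc, Vill, Arfgef3, Ugt1a6b, 4930519F16Rik, Gm29609, Gm49320 and Hmgb1-ps8, the other 9 of them named after their values were seen.

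Red cell transcripts were higher on the right as well. Of 10 tested erythroid members, 10, 8 and 9 were higher on the right in pairs 14, 30 and 33, with medians of 1.70, 0.51 and 1.10. Hbb-bs, an adult beta globin, had 41.0 CPM in 14L and 251.9 in 14R, 50.7 in 30L and 77.8 in 30R, and 193.9 in 33L and 607.7 in 33R. Alas2, which starts heme synthesis in red cells, had 1.14 CPM in 14L and 4.66 in 14R, 1.06 in 30L and 2.78 in 30R, and 5.58 in 33L and 10.9 in 33R. In the 8 tumors without a mate Hbb-bs lay between 26.7 and 1034 CPM and Alas2 between 0.995 and 29.7, and the summed TPM of the list was 223.4 to 2652 in the 3 left and 677.9 to 6588 in the 5 right tumors, so that the sides overlapped. Platelet genes had medians of 0.33, -0.09 and -0.11 over 5 members.

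Cytotoxic effector genes were lower in 30R than in 30L, while the medians of T cell markers were close to 0. The T cell list had medians of -0.12, 0.07 and -0.09 over 17 members, with 2, 12 and 5 of them higher on the right, and its summed TPM was 62.5 in 14L and 45.2 in 14R. Cd8b1, a chain of the CD8 coreceptor, had 3.95 CPM in 14L and 3.91 in 14R, 7.08 in 30L and 7.17 in 30R, and 2.66 in 33L and 2.53 in 33R, so that both tumors of a mouse lay within 0.07 log2 of each other. Not all members were this even. They ranged from -1.23 to 0.49 in pair 14, from -0.72 to 0.47 in pair 30 and from -0.72 to 1.26 in pair 33. The cytotoxic and NK list in contrast had 15 of 15 members lower in 30R, with a median of -0.44, against 0.28 and 0.64 in pairs 14 and 33. Gzmb, the granzyme of cytotoxic T and NK cells, had 54.6 CPM in 14L and 80.3 in 14R, 144.6 in 30L and 62.8 in 30R, and 57.7 in 33L and 129.7 in 33R. Prf1, the pore-forming perforin, had 89.2 CPM in 30L and 41.4 in 30R. This difference was not unusual among responder tumors. The mean level of the list was -0.59 in 30R relative to 30L, and 5 of 9 pairs of responder tumors from different mice were farther apart (median 0.68).

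Gzmf, Gzmg and Gzmd, granzymes of 1 gene cluster on chromosome 14, were among the 10 genes most higher in 30L. Gzmd had 70.0 CPM in 14L and 147.9 in 14R, 135.6 in 30L and 32.3 in 30R, and 159.1 in 33L and 443.6 in 33R. Gzmf had 70.4 and 125.2, 144.9 and 31.0, and 174.0 and 436.1 CPM in the left and right tumors of mice 14, 30 and 33. These granzymes resemble each other in sequence, so that reads could be split among them. They were higher on the right in mice 14 and 33 and higher on the left in mouse 30. The other genes of that top 10 were Ltf, Fmod, Gm13230, C1qtnf3, Nppb, Fcrl6 and Gm14681, with Ltf, the neutrophil granule protein lactoferrin, at 6.95 CPM in 30L and 1.07 in 30R.

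Inflammatory cytokine genes were higher in 14R and lower in 30R, like the granzymes, but were mixed in mouse 33. The list was lower in 30R for 15 of 16 members, with a median of -0.86, and higher in 14R for 15 of 16, with a median of 0.62, and 9 of 16 were higher in 33R, with a median of 0.14, or -0.21 on the log2(TPM + 1) scale. Cxcl3, a neutrophil-attracting chemokine, had 2.05 CPM in 14L and 5.49 in 14R, 4.54 in 30L and 0.695 in 30R, and 9.09 in 33L and 6.72 in 33R. Ptgs2, the inducible cyclooxygenase, had 123.4 CPM in 30L and 46.4 in 30R. Hypoxia and glycolysis genes were lower in 30R for 21 of 25 members (median -0.60) and higher on the right for 18 and 22 of 25 in pairs 14 and 33 (medians 0.33 and 0.36, the latter -0.07 on the log2(TPM + 1) scale). Car9, a carbonic anhydrase induced by low oxygen, had 14.8 CPM in 14L and 28.6 in 14R, 26.7 in 30L and 8.90 in 30R, and 10.6 in 33L and 18.5 in 33R. Granzymes, cytokines and hypoxia genes were thus for the most part lower in the tumor of mouse 30 that held more epidermis and muscle. Whether the difference in host tissue took part in this was not tested.

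MHC class II genes, which present antigen to helper T cells, were lower in 14R for 8 of 9 members, with a median of -0.90, against 0.21 and -0.15 in pairs 30 and 33. H2-Ab1, a class II beta chain, had 148.2 CPM in 14L and 79.0 in 14R, 315.2 in 30L and 364.2 in 30R, and 87.7 in 33L and 80.5 in 33R. Mast cell and eosinophil genes followed epidermis in mice 14 and 30, with medians of -0.77 and 0.90, and its median in pair 33 was 0.23, or -0.12 on the log2(TPM + 1) scale. Tpsab1, a mast cell tryptase that could share reads with its near copy Tpsb2, had 41.9 CPM in 14L and 21.5 in 14R, 9.17 in 30L and 28.2 in 30R, and 17.8 in 33L and 22.8 in 33R. Mast cells are residents of normal skin, and the tumors with more keratin had more of their transcripts in these 2 mice. Eosinophil markers were near the floor, with Epx at 0 counts in 14L, both tumors of mouse 30 and both of mouse 33.

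Short transcripts were higher on the right in mice 14 and 33. The difference correlated with gene length across the 16287 genes at a Spearman rho of -0.392 in pair 14, 0.014 in pair 30 and -0.593 in pair 33, a description across genes of 2 libraries each. With the genes cut by length into 4 groups of equal size, the median in pair 33 was 0.47 in the group of shortest genes and -0.56 in that of the longest. All 79 cytosolic ribosomal protein genes tested were higher in 14R and in 33R, with medians of 0.34 and 0.80, and 77 of them were lower in 30R (median -0.28). The nuclear genes of oxidative phosphorylation, most of them short, had medians of 0.40, -0.09 and 0.81 over 75 members, and that of pair 30 was 0.07 on the log2(TPM + 1) scale. The mean fragment length was 268.84 in 14L and 272.21 in 14R, 274.07 in 30L and 275.92 in 30R, and 278.23 in 33L and 287.83 in 33R, and its part in these differences was not tested. With the trend on length removed, the muscle medians were 2.6, 3.86 and 1.77.

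The 13 protein genes of the mitochondrial genome, which are not spliced, were for the most part lower on the right in each mouse, the other way from the nuclear ones in mice 14 and 33. Their median was -0.57, -0.55 and -0.63, and 11, 12 and 12 of 13 were lower on the right. mt-Cytb, a subunit of respiratory complex III, had 1989 CPM in 14L and 1159 in 14R, 1602 in 30L and 896.7 in 30R, and 2214 in 33L and 1383 in 33R. Of the 13, 8 had an unadjusted p under 0.05 in the flank test, and the adjusted p of mt-Cytb was 0.643 (edgeR). In the tumors without a mate their summed TPM was 21220 to 49590 in 3 left and 15050 to 44720 in 5 right tumors, so that the sides overlapped.

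The last question was which genes differed less between the 2 tumors of a mouse than between mice of a group. Over all genes tested, the median SD between the 2 tumors of a mouse was 0.265 log2 CPM, against 0.196 between mice of a group (the square root of each mean square, on 3 and 8 degrees of freedom), and 36.5% of genes had the smaller SD within pairs. Interferon response genes went against this, with 22 of 25 members closer within mice, a median SD of 0.277 within pairs and 0.613 between mice. Their SD within pairs was no smaller than the 0.265 of all genes. The order came from their larger SD between mice, where all genes had 0.196. Gbp3, an interferon-induced GTPase, had 156.0 CPM in 14L and 160.0 in 14R, 285.0 in 30L and 242.8 in 30R, and 115.4 in 33L and 112.6 in 33R. The tumors without a mate had 57.0 to 106.4 in control IgG, 157.2 to 445.7 in responder, and 97.1 and 117.7 in non-responder tumors. Both tumors of mouse 30 lay above both of mouse 14, and these above both of mouse 33, for Gbp3. Gbp3 was among the genes with the smallest p in the test between mice given below. Its SD within pairs of 0.097 lay under the median of its list, so that it does not stand for the list.

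Adipocyte genes were likewise closer within mice for 17 of 19 members, with a median SD of 0.378 within pairs and 0.75 between mice. Lpl, the lipase that releases fatty acids from lipoproteins, had 17.8 CPM in 14L and 17.3 in 14R, 33.1 in 30L and 36.1 in 30R, and 20.2 in 33L and 21.5 in 33R. Lpl was also among the genes with the smallest p in the test between mice, and its SD within pairs was 0.066. The list was not uniform, and its SD within pairs was above the 0.265 of all genes. In pair 30, 6 of 19 members were at least 2-fold higher in 30L and 1 in 30R, against 2.12% and 5.59% of all genes. In pair 14, 1 was at least 2-fold higher in 14L and 3 in 14R, against 5.81% and 2.66% of all genes. In pair 33 there were 0 in 33L and 1 in 33R, against 7.12% and 4.08%. Adipoq, the fat cell hormone adiponectin, had 11.7 CPM in 30L and 4.61 in 30R. Cidea, a lipid droplet protein also made by sebaceous glands, went with the skin genes, at 1.96 CPM in 14L and 0.128 in 14R and 0 in 30L and 2.17 in 30R.

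Of the 39 lists, 19 had the smaller median SD within pairs, several leukocyte and stromal lists among them. The SD within pairs and between mice was 0.266 and 0.435 for T cell genes (12 of 17 closer within mice), 0.389 and 0.752 for neutrophil genes (8 of 13), 0.393 and 0.651 for MHC class II (8 of 9), 0.346 and 0.494 for fibroblast genes (12 of 18), 0.184 and 0.324 for immediate early genes (11 of 15) and 0.194 and 0.357 for glucocorticoid targets (8 of 10). Of these, only the immediate early and glucocorticoid lists had an SD within pairs below the 0.265 of all genes. The cytotoxic and NK list had 0.334 within pairs and 0.451 between mice (9 of 15 closer within mice). Without pair 14 the SD within pairs of MHC class II was 0.174. Without pair 33 that of fibroblast genes was 0.224, and without mouse 33 their SD between mice was 0.335. The opposite order held for macrophage genes (0.293 within pairs and 0.233 between mice, and 0.184 within pairs without pair 33), mast cell and eosinophil genes (0.492 and 0.447), blood endothelium (0.304 and 0.194), lymphatic endothelium (0.611 and 0.552) and pericytes (0.452 and 0.333). It held for hypoxia and glycolysis genes (0.402 and 0.235), cytosolic ribosomal proteins (0.368 and 0.135) and nuclear oxidative phosphorylation (0.375 and 0.134) as well. Without pair 33 the SD within pairs was 0.226 for the ribosomal and 0.212 for the oxidative phosphorylation genes. The differences were larger in size for epidermis (3.74 within pairs and 1.41 between mice), sebaceous gland (3.07 and 0.771), hair follicle (2.59 and 1.66) and skeletal muscle (2.09 and 1.13). Cell cycle genes had low values of both, at 0.164 and 0.158, and 0.108 within pairs without pair 33. With each mouse left out in turn, the SD between mice of the interferon list stayed between 0.516 and 0.655 and that of the adipocyte list between 0.655 and 0.784.

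**Figure D5:**
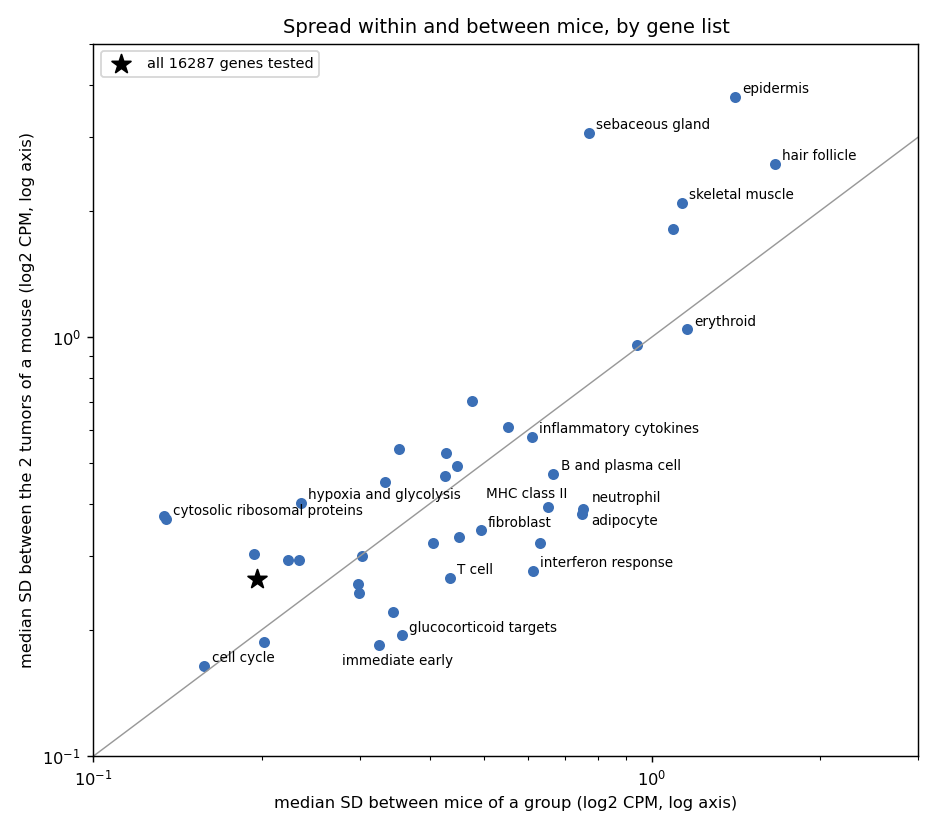
Median SD between the 2 tumors of a mouse (y axis) against the median SD between mice of a group (x axis), both in log2 CPM on log axes, with a point for each gene list and a star for all genes tested. Lists below the grey line of equality, such as interferon response at 0.613 and 0.277, had a smaller SD within mice than between them, and the skin and muscle lists lie above it.

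The test of differences between mice of a group beyond the left-right spread gave no call (0 genes, 0%, edgeR quasi-likelihood test with an adjusted p under 0.05). At an unadjusted p under 0.05 there were 374 genes, limma-voom called 0 and DESeq2 165, and the between-mouse fits rest on the spread of only 3 pairs. Among the genes with the smallest p, which are named here after their values were seen, were Retnla, Lpl, Gbp10, Dpt, Gbp3 and Igtp. Retnla, a secreted marker of alternatively activated macrophages, had 1.53 CPM in 14L and 2.09 in 14R, 59.6 in 30L and 65.2 in 30R, and 18.7 in 33L and 17.1 in 33R, and its SD was 0.193 log2 within pairs and 1.13 between mice. Dpt, a matrix protein of dermal fibroblasts, had 35.2 CPM in 14L and 33.8 in 14R, 30.5 in 30L and 29.3 in 30R, and 40.7 in 33L and 50.2 in 33R. These values are of 1 mouse per group. In the tumors without a mate, Retnla had 0.274 to 2.41 CPM in control IgG, 14.7 to 44.1 in responder and 8.27 and 17.4 in non-responder tumors. Dpt had 18.7 to 26.5, 14.4 to 29.9, and 16.7 and 16.8 CPM in these groups. The genes were picked by the smallest p of this same contrast, so that their closeness within a mouse is no separate result, and there was no call over all genes.

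The remaining lists had no median past 2-fold in any pair, apart from 2. The mammary and glandular epithelium list had medians of -0.07, -1.25 and -0.91 over 12 members, and the melanocyte list rested on 1 tested gene, at -1.11, 1.22 and 0.51. Macrophage genes had medians of 0.28, 0.15 and 0.09 over 19 members (the last -0.43 on the log2(TPM + 1) scale), blood endothelium -0.47, 0.27 and -0.33 over 16, and B and plasma cell genes 0.29, -0.72 and 0.13 over 14 (the last -0.05 on the log2(TPM + 1) scale). Colon epithelium genes had medians of 0.02, -0.37 and -0.07 over 8 members. Neutrophil genes had medians of 0.18, -0.69 and -0.24 over 13 members. The lists for lymphatic endothelium, pericytes, nerve, lymphoid stroma, dendritic cells, heat shock, the integrated stress response, metalloproteinases, cholesterol synthesis and the circadian clock had medians between -0.77 and 0.48. Medians can hide single members, and Ccl21a was 5.66 and Mmrn1 4.08 higher in 30R. For lymphatic endothelium the mean level over 5 tested members was 1.92 higher in 30R, while the summed TPM was 91.6 in 30L and 87.2 in 30R. Igkc, the kappa light chain constant region, had 26.1 CPM in 30L and 10.01 in 30R, and 3.10 to 3.72 in the other 4 tumors.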

How the data were processed

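Poly-A selected RNA of 14 tumors was sequenced, and the 6 tumors of 3 mice were compared here. The authors aligned reads with STAR and quantified genes with RSEM on mm10, both with default settings (the RSEM version is not given in the sources used here), and deposited per gene an expected count, TPM and FPKM for each tumor. The FPKM values deposited by the authors were not used. Strand use in counting is not given in the sources used here. GENCODE M21 (GRCm38) supplied symbols for 53706 of 53801 genes.

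Expected counts were rounded and 16287 genes passed edgeR's expression filter. TMM-normalized log2 CPM values (prior count 2) gave right minus left differences. The flank test was edgeR's quasi-likelihood test (edgeR 4.0.16, R 4.3.3) with mouse as a block, since same-numbered tumors come from the same animal. The correlations of their deviations from group means were -0.452, -0.569 and -0.355. Each group mean included both tumors of the pair, which by itself makes such correlations negative, so that their sign alone says nothing of the mouse. The mouse test used mice nested in groups, over all 14 tumors. Adjusted p under 0.05 was a call. DESeq2 1.42.0, limma 3.58.1, other scalings, filters and left-out tumors were alternatives. The fits were tested on simulated data. Between-tumor p-values measure only the spread among these samples. Intervals are 95% and exact for the ratio of 2 counts.

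The tumors, gene lists and tests were chosen with earlier results of these data known. Named genes were the 10 with the largest difference in each direction per pair (mean log2 CPM of at least 1), the 5 with the smallest p in the flank test when none was called, and list members of highest mean TPM or largest difference. Other list members named were chosen after their values were seen.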

Additional observations from a re-analysis of the deposited data

Results flagged for a closer look

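Within groups of 4 or 5 tumors, 6 of 117 list levels stood apart from the rest of their group, where chance marks about 1 in 20. In 14R the mean log2 CPM of skeletal muscle was 4.99, against 2.04 to 2.84 in the other control IgG tumors, and that of epidermis was -1.46, against 3.54 to 4.25. In 33R epidermis was at 2.02, against 3.09 to 3.14 in the other non-responder tumors, and the circadian clock genes at 5.04, against 5.32 to 5.37. In 33L hair follicle genes were at -0.01, against -3.53 to -3.43. In 30R blood endothelium was at 4.48, against 4.23 to 4.29 in the other responder tumors. All 6 were tumors of the left-right pairs.

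The pairs also went opposite ways for skin lists, and these differences between mice were not tested. For epidermis, the median right minus left difference in pair 14 less that in pair 30 was -12.54, and pair 30 less pair 33 gave 7.32. For hair follicle the same differences were -7.07 and 7.85. Sebaceous gland gave -10.6 between pairs 14 and 30. The melanocyte list, with 1 tested gene, gave -2.33.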

How the results depend on the processing

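For right against left (0 calls), the fit with no replicate block called 0 genes, as did all 14 tumors, the 8 without a mate, limma-voom, RLE and a length offset (edgeR and limma, 622 to 1222 genes at an unadjusted p under 0.05). DESeq2 called 107, no filter 14, and an offset for length with pair 30 left out, chosen after seeing the data, 73. Leaving out each pair gave 0 to 2634, the highest without pair 30, with 12 without pair 14. For mice of a group (0 calls), DESeq2 called 165, no filter 162, and limma-voom, RLE, a length offset and each left-out tumor 0 (269 to 617 at an unadjusted p under 0.05). Genes past 2-fold (1380, 1257 and 1824 in pairs 14, 30 and 33) became 500, 458 and 1586 on log2(TPM + 1), 3037, 2853 and 3772 with no filter, 575, 574 and 182 at 4-fold, and 1115 in pair 33 with the length trend removed. The same-mouse distance was 0.786 to 0.882 with each tumor left out. It was 3.31 over the 500 most variable genes, 0.0226 as 1 minus Spearman correlation, 0.522 on log2(TPM + 1), 0.779 with the length trend removed and 0.78 with no filter, with p between 0.0167 and 0.0433 (exact permutation test). Of 117 list medians, RLE changed the sign of 0, length removal of 8 and log2(TPM + 1) of 21, 0 of them past 2-fold. The causes were not tested. With 1 library per side of each mouse, no pair has a replicate, and ratios over 1 to 3 counts are known only within their wide counting intervals.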
